A study of Mus musculus with 8 samples.

Results

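Reg lectins and other secreted or surface proteins of mucosal defence were described in 2 sorted fractions of mouse small intestinal epithelium. The 9 genes, Reg1, Reg3a, Reg3b, Reg3g, Reg4, Lypd8, Pigr, Ccl25 and Ccl28, were chosen by symbol through their Ensembl identifiers. Of these, 8 were found among the 23318 genes of the deposited tables, and Ccl28 is not analysed here. All 8 passed the filter on low values, which required 4 or more libraries at 10 or above and kept 12906 genes.

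CD24Mid cells, also called CD24low in the study's own text, had an intermediate surface level of CD24, a glycoprotein that is high on crypt cells, and CD24Neg cells were sorted as negative for it. Both fractions were depleted of cells positive for CD45, a leukocyte antigen, and of cells bound by Ulex europaeus agglutinin, a fucose-binding lectin that stains goblet and Paneth cells. Each fraction had 4 libraries of total RNA, described as biological replicates, and the numbers in the titles are 1, 3, 5 and 7 for CD24Mid and 2, 4, 6 and 8 for CD24Neg. The series is about 5-hydroxymethylcytosine and gene activity in intestinal differentiation, and the labels state no strain, sex or age of the mice. The fractions are mixtures of cell types, so fewer cells of a type and less RNA per cell cannot be told apart.

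Reg proteins are small secreted C-type lectins. In the intestine, Reg3b and Reg3g kill or hold off bacteria at the mucosal surface, and their transcription in epithelial cells is known to respond to microbes through MyD88 and to IL-22 through STAT3. Pigr encodes the polymeric immunoglobulin receptor that carries dimeric IgA across the epithelium into the lumen, Lypd8 is a membrane-anchored and shed protein that binds flagellated bacteria, and Ccl25 is the epithelial chemokine that draws Ccr9-bearing lymphocytes to the small intestine.

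Of the 5 Reg genes, 4 lie in 1 cluster on mouse chromosome 6, with Reg2 and Reg3d between them, 6 genes over 98.2 kb (GRCm38, GENCODE M21). Their order along the chromosome is Reg3b (chr6:78370657-78373466, plus strand), Reg3d, Reg3a (chr6:78380709-78383827, plus strand), Reg2, Reg1 (chr6:78422711-78428667, plus strand) and Reg3g (chr6:78466269-78468872, minus strand). Reg4 lies apart from them (chr3:98222156-98236748, plus strand). The other members are Lypd8 (chr11:58379043-58390728, plus strand), Pigr (chr1:130826684-130852249, plus strand) and Ccl25 (chr8:4325210-4360020, plus strand).

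The 250 bases upstream of the RefSeq start (GRCm38.p6) are shown for the 3 Reg3 genes, of which Reg3b and Reg3a were each compared with Reg3g, and for Reg4, which went the other way. Capitals mark matches, on either strand, to the letters TATAAA (the TATA box), TTCNNNGAA (the spacing bound by STAT factors), TTTATG (a core of CDX sites) and AGATAA (known from binding sites of zinc finger factors named after the letters GATA). No match overlapped another.
Reg3b (chr6:78370635-78370884, plus strand): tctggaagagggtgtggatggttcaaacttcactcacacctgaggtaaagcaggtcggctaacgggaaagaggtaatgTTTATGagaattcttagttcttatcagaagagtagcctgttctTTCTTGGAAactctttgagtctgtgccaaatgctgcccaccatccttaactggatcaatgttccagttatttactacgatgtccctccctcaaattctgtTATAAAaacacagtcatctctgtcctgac
Reg3g (chr6:78468875-78469124, minus strand): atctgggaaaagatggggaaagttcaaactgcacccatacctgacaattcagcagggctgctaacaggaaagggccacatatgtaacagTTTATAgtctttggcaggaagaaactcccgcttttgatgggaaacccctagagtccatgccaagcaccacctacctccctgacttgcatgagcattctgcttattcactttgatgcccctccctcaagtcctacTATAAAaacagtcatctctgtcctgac
Reg3a (chr6:78380459-78380708, plus strand): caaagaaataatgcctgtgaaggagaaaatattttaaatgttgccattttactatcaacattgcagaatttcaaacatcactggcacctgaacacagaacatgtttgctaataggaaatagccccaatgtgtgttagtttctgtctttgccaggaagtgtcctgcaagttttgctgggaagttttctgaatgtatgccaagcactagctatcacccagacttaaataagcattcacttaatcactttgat
Reg4 (chr3:98221906-98222155, plus strand): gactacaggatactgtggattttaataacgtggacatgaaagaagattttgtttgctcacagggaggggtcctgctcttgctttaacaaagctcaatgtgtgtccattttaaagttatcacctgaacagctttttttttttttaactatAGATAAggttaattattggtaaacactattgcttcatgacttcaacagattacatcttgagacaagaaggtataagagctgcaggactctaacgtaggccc
Reg3b and Reg3g hold TATAAA at -29 to -24 and at -27 to -22 from the start, and Reg1, not printed, holds it at -30 to -25. The spaced TTCNNNGAA stands in the Reg3b window alone among the 5 Reg windows, at -129 to -121, and TTTATG stands at -172 to -167 of the same window. In Reg3g a copy of TATAAA on the other strand lies at -161 to -156, Reg4 holds AGATAA at -101 to -96, and Reg3a holds none of the 4 motifs. Over all 32851 RefSeq windows of this length, 12.4% held TATAAA, 7.02% TTCNNNGAA, 10.8% TTTATG and 9.99% AGATAA, so each match is a description of letters only. The Reg3b and Reg3g windows were identical in 173 of 253 alignment columns (68.4%), against 44.9% to 49.5% for the other 9 pairs aligned from end to end. With free ends, Reg3a aligned to Reg3g in 138 of 207 columns (66.7%), and the Reg3g window reached 47 bases farther. The RefSeq starts of Reg1 and Reg3b lie 3272 and 228 bases inside the GENCODE gene bounds given above, so these positions hold for the RefSeq starts alone. The Reg3a window, counted from its own RefSeq start, stops short of the stretch that holds TATAAA in Reg3g.

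Values below are the authors' normalised expression values per gene, which behave like read counts scaled between libraries and are not divided by gene length. The lowest values rise in even steps, and reading 1 step as 1 read gave 17.5 to 19.7 M reads per CD24Mid library and 12.5 to 20.7 M per CD24Neg library. Mitochondrially encoded genes took 8.03% to 9.10% of the CD24Mid values and 28.3% to 37.4% of the CD24Neg values. Summed enterocyte markers (10 genes) lay between 21825 and 35999 in CD24Mid, against 493075 to 868387 in CD24Neg. Summed crypt base stem cell markers (7 genes) lay between 46845 and 61403 in CD24Mid, against 2684 to 6279 in CD24Neg. Goblet cell markers were present in both despite the lectin depletion, with sums of 52274 to 79751 in CD24Mid against 184644 to 511194 in CD24Neg. CD24Neg libraries 2 and 8 stood apart by their summed intraepithelial T cell markers, 8860 and 6978, against 597 and 1587 in CD24Neg libraries 4 and 6 and 167 to 429 in CD24Mid. Most genes differed between the fractions. By limma 68.3% of all tested genes were called, 34.3% higher and 34.0% lower in CD24Mid, and in 63.8% no library of one fraction lay inside the range of the other.

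Of the 8 members, 7 were lower and 1, Reg4, was higher in CD24Mid by limma at an adjusted p under 0.05, and none of the 8 had overlapping fractions. With 68.3% of all genes called, and with 31.8% lower and 32.1% higher in CD24Mid without overlap, these counts by themselves do not set the members apart from other genes. The sizes ran from 27.5-fold lower (Reg3a) to 3.14-fold higher (Reg4). The median log2 difference of the members was -2.07, beside 0.02 for all tested genes. Under 2 scalings to library totals the median of all tested genes moved to 0.44 and 0.48, and the members split into 6 lower and 1 higher. Under quantile normalization 5 were lower and 2 higher.

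**Figure D1:**
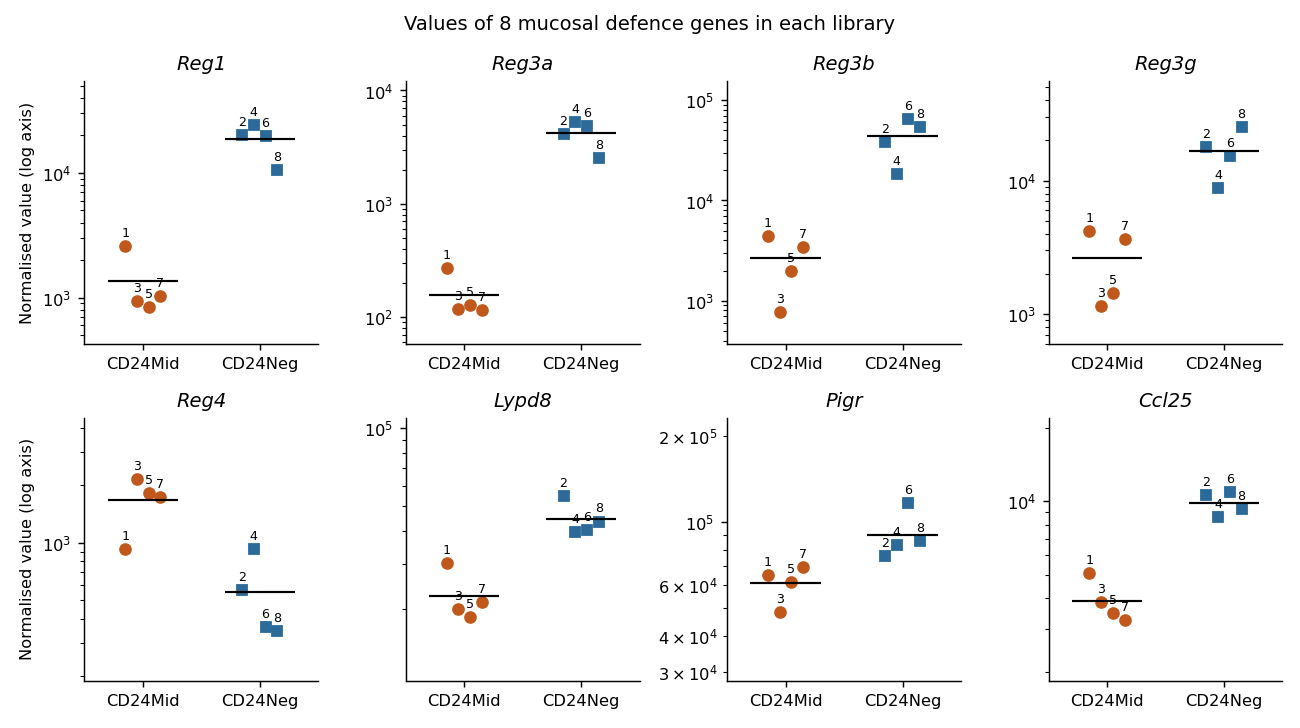
Normalised value of each of the 8 members in every library, on a log axis, with CD24Mid libraries (circles) left of CD24Neg libraries (squares), the number in the title beside each point and a line at the mean of 4. The 7 members other than Reg4 sit lower in all 4 CD24Mid libraries than in any CD24Neg library, while Reg4 sits higher, with CD24Mid library 1 and CD24Neg library 4 nearly level at 930 and 929.

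Reg3a, a lectin of the Reg3 group, had the largest difference. Its values were 270, 117, 127 and 116 in CD24Mid libraries 1, 3, 5 and 7, and 4165, 5271, 4815 and 2557 in CD24Neg libraries 2, 4, 6 and 8. CD24Mid library 1 stood above the other 3, which lay within 11.4 of each other, and the highest CD24Mid library was far under the lowest CD24Neg library. The mean was 157 ± 75.2 in CD24Mid and 4202 ± 1187 in CD24Neg (SD, n = 4 each), a log2 difference of -4.78 (SE 0.30, limma adjusted p = 7.20e-07). A larger difference in size was found in 1.57% of the tested genes.

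Reg3b, the Reg3 lectin known in mice for activity against Gram-negative bacteria, had the highest mean of the Reg genes in CD24Neg, although Reg1 was higher in library 4 (24186 against 18313). It had 4418, 767, 1959 and 3441 in CD24Mid libraries 1, 3, 5 and 7, and 37949, 18313, 65515 and 54200 in CD24Neg libraries 2, 4, 6 and 8. CD24Mid library 3 was the lowest of its fraction and CD24Neg library 4 of its own, and the fractions stayed apart. Averages of 2646 ± 1610 in CD24Mid and 43994 ± 20521 in CD24Neg gave a log2 difference of -4.18 (SE 0.55, limma adjusted p = 7.47e-05), or 18.1-fold lower. Its spread between libraries of a fraction was larger than that of 95.5% of the tested genes.

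Reg1, first known from the pancreas, where its product is called lithostathine, was 14.7-fold lower. The 4 CD24Mid libraries had 2606, 946, 837 and 1031, and the 4 CD24Neg libraries 20105, 24186, 19592 and 10579. As with Reg3a, CD24Mid library 1 was the high one and CD24Neg library 8 the low one, with no overlap. The log2 difference was -3.88 (SE 0.36, limma adjusted p = 7.66e-06), from means of 1355 ± 838 in CD24Mid and 18616 ± 5738 in CD24Neg. Pancreatic acinar markers, in view of the gene's pancreatic expression, summed to 31.7 to 65.0 in CD24Mid and 63.6 to 102 in CD24Neg over 7 genes found, of which 5 were under 10 in every library.

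Reg3g, the lectin that binds peptidoglycan of Gram-positive bacteria, changed least among the 4 clustered genes. CD24Mid libraries 1, 3, 5 and 7 held 4193, 1155, 1448 and 3670, and CD24Neg libraries 2, 4, 6 and 8 held 17733, 8765, 15271 and 25178. Libraries 1 and 7 were high and 3 and 5 low within CD24Mid, libraries 8 and 2 high and 4 low within CD24Neg, and the fractions did not overlap. Means of 2617 ± 1538 (CD24Mid) and 16737 ± 6781 (CD24Neg) made it 6.94-fold lower, a log2 difference of -2.80 (SE 0.45, limma adjusted p = 0.000306). The same libraries, 1 and 7 in CD24Mid and 2 and 8 in CD24Neg, held the most intraepithelial T cell transcripts in each fraction. The match was partial, since CD24Neg library 6 was near library 2 in Reg3g (15271 and 17733) but not in these transcripts. The marker sums were 425, 167, 204 and 429 in CD24Mid libraries 1, 3, 5 and 7 and 8860, 597, 1587 and 6978 in CD24Neg libraries 2, 4, 6 and 8, and the part of these cells in the spread of Reg3g was not tested.

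Reg4, a more distant family member known as a marker of enteroendocrine and deep crypt secretory cells, went the other way. Its CD24Mid values were 930, 2165, 1827 and 1743, and its CD24Neg values 568, 929, 362 and 346. CD24Mid library 1 was the low one and CD24Neg library 4 the high one, and these 2 differed by less than 1 unit, at 929.7 and 929.3. The mean of 1666 ± 524 in CD24Mid against 551 ± 272 in CD24Neg gave a log2 difference of 1.65 (SE 0.34, limma adjusted p = 0.00159), or 3.14-fold higher. Enteroendocrine markers (10 genes, 8 of them higher in CD24Mid) summed to 4123, 11914, 9627 and 7377 in CD24Mid libraries 1, 3, 5 and 7 and to 1192, 1806, 1151 and 1485 in CD24Neg libraries 2, 4, 6 and 8. Within CD24Mid the libraries ran in the same order by this sum and by Reg4, and CD24Neg library 4 was highest in both. The rest of CD24Neg did not keep the order: library 8 was lowest by Reg4 (346) but not by the sum (1485), where library 6 was lowest (1151). The part of these cells in the Reg4 difference was not tested.

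Reg2 and Reg3d, which sit inside the same cluster as Reg1 and the Reg3 genes, fell under the filter on low values. Reg2 was at most 0.470 in CD24Mid, and in CD24Neg it was listed at 0 in 3 libraries and had 4.37 in library 4. Reg3d had 4.71, 1.02, 3.48 and 4.00 in CD24Mid and 28.1, 23.3, 18.4 and 5.59 in CD24Neg, without overlap. In the fit without the filter, Reg3d was lower in CD24Mid (log2 difference -2.27, limma adjusted p = 0.0228) and Reg2 was not called (-0.15, adjusted p = 0.946). Both lay far under their neighbours Reg3b and Reg3a in every library. Taken as 1 sum, the 5 member Reg genes made up 0.0785% ± 0.0301 of all values outside mitochondrially encoded genes in CD24Mid and 0.569% ± 0.135 in CD24Neg, where Reg3b alone accounted for 0.297%.

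The Reg genes of the cluster did not keep constant ratios to each other. A factor applied to a whole library leaves such ratios nearly unchanged, though quantile normalization does not, and 5 pairs of members were compared by exact two-sided permutation tests, with p adjusted over the 5. The log2 ratio of Reg3b to Reg3g was 0.08, -0.59, 0.44 and -0.09 in CD24Mid libraries 1, 3, 5 and 7, and 1.10, 1.06, 2.10 and 1.11 in CD24Neg libraries 2, 4, 6 and 8. The pair was thus about level in CD24Mid, while Reg3b exceeded Reg3g in all CD24Neg libraries. The difference was -1.39, with means of -0.04 ± 0.43 in CD24Mid and 1.34 ± 0.51 in CD24Neg (exact p = 0.0286, the smallest that 4 against 4 allows, adjusted p = 0.0476).

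Reg3a over Reg3g had a log2 ratio of -3.93 ± 0.75 in CD24Mid against -1.95 ± 1.06 in CD24Neg, which differ by -1.99 (exact p = 0.0286, adjusted p = 0.0476). CD24Mid library 3 and CD24Neg library 8 were level at -3.301 and -3.299, and with a pseudocount of 1 in place of 0.5 they crossed, which raised the adjusted p of this pair to 0.0952 and that of the other passing pairs to 0.0714. Reg1 over Reg3g overlapped between the fractions, at -0.90 ± 0.66 in CD24Mid and 0.19 ± 1.11 in CD24Neg (difference -1.09, adjusted p = 0.143). Reg4 over Reg1 separated the fractions by the widest margin, 0.40 ± 1.27 in CD24Mid against -5.13 ± 0.45 in CD24Neg (difference 5.53, adjusted p = 0.0476).

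**Figure D2:**
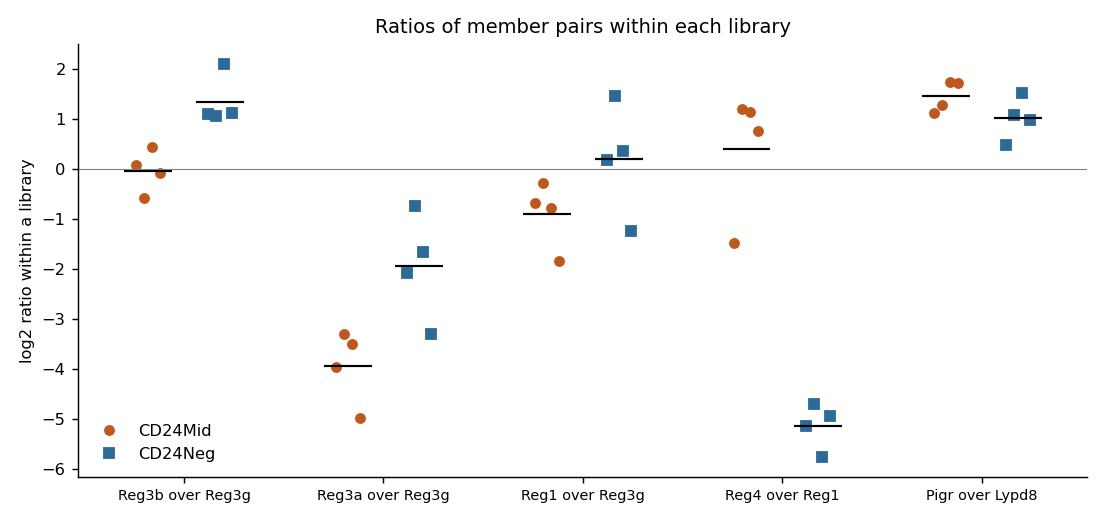
Log2 ratio of 2 members within each library for 5 pairs, CD24Mid (circles) left of CD24Neg (squares), with a line at the mean of 4 libraries. The fractions are apart for Reg3b over Reg3g and for Reg4 over Reg1, touch for Reg3a over Reg3g at -3.301 and -3.299, and overlap for Reg1 over Reg3g and Pigr over Lypd8.

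Between libraries of the same fraction, the 4 clustered genes varied together in some libraries and not in others, a pattern given here without a test. In CD24Neg library 4, Reg1 and Reg3a were 0.44 and 0.38 above their fraction means on the log2 scale, while Reg3b and Reg3g were 1.11 and 0.84 under theirs (deviations of -1.11 and -0.84). CD24Neg library 8 was the reverse, with deviations of -0.75 and -0.67 for Reg1 and Reg3a and of 0.45 and 0.69 for Reg3b and Reg3g. All 4 were high in CD24Mid library 1, by 0.88 to 1.11, where Reg4 was low (-0.77). CD24Mid library 7 divided the genes like CD24Neg library 8, with deviations of -0.23 and -0.34 for Reg1 and Reg3a and of 0.65 and 0.70 for Reg3b and Reg3g. In CD24Mid library 3 all 4 were low, at -0.35 and -0.33 for Reg1 and Reg3a and at -1.51 and -0.96 for Reg3b and Reg3g. CD24Mid library 5 and CD24Neg libraries 2 and 6 did not divide the genes in this way. CD24Mid library 5 had deviations of -0.53 and -0.21 for Reg1 and Reg3a and of -0.16 and -0.64 for Reg3b and Reg3g, and CD24Neg library 6 had 0.14 and 0.25 for Reg1 and Reg3a and 0.73 and -0.034 for Reg3b and Reg3g. CD24Mid library 1 also had the highest enterocyte marker sum of CD24Mid, 35999 against 21825 to 26978 in the other 3, and the lowest sums of enteroendocrine (4123 against 7377 to 11914) and stem cell markers (46845 against 55228 to 61403). The 5 Reg genes had a spread within fractions larger than that of 84.6% to 95.5% of the tested genes, against 47.2% to 55.8% for Lypd8, Pigr and Ccl25.

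**Figure D3:**
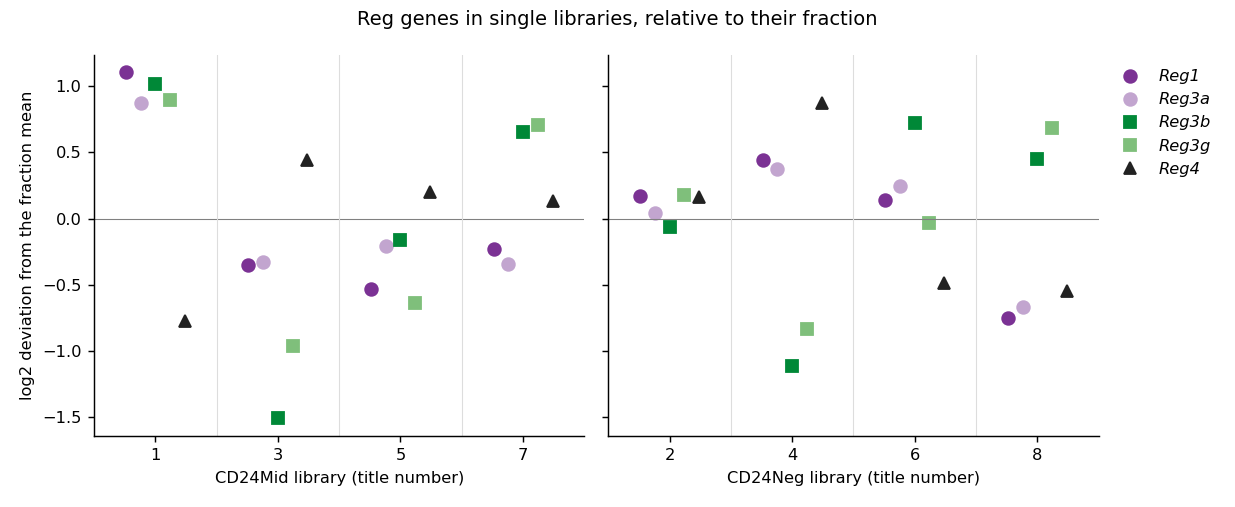
Log2 deviation of each Reg gene from its mean over the 4 libraries of a fraction, by library, with CD24Mid in the left panel and CD24Neg in the right. Reg1 and Reg3a (circles) part from Reg3b and Reg3g (squares) in CD24Mid libraries 3 and 7 and CD24Neg libraries 4 and 8. In CD24Mid libraries 3 and 5 and CD24Neg library 6, Reg3b and Reg3g also lie apart from each other.

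Lypd8, a member of the Ly6/uPAR family of surface proteins, was 2.0-fold lower in CD24Mid. Values of 30202, 20048, 18613 and 21269 in CD24Mid stood against 54669, 39700, 40527 and 43606 in CD24Neg. CD24Mid library 1 and CD24Neg library 2 were the high ones, and the fractions did not overlap. From means of 22533 ± 5227 in CD24Mid and 44626 ± 6904 in CD24Neg the log2 difference was -1.0 (SE 0.18, limma adjusted p = 0.000602), which quantile normalization turned to 0.10 (adjusted p = 0.636). Tested against a fold change of 1.5 it missed the threshold (adjusted p = 0.0557).

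Pigr had the highest value of the members in every library. Its values were 65190, 48457, 61731 and 69670 in CD24Mid and 75814, 83219, 116548 and 85640 in CD24Neg. CD24Mid library 3 was the low one and CD24Neg library 6 the high one, and only a narrow gap separated CD24Mid library 7 from CD24Neg library 2. The means, 61262 ± 9135 in CD24Mid and 90306 ± 17988 in CD24Neg, differed by -0.55 on the log2 scale (SE 0.18, limma adjusted p = 0.0174), a call that rested on the scaling: the difference was -0.13 (adjusted p = 0.508) and -0.088 (0.644) under the scalings to totals, and 0.94 (0.000308) under quantile normalization. Without CD24Mid library 3 it was -0.44 (adjusted p = 0.0578). As a share of all values outside mitochondrially encoded genes, Pigr took 0.572% ± 0.0890 in CD24Mid and 0.608% ± 0.0951 in CD24Neg, and it ranked 9 in CD24Mid and 16 in CD24Neg among the 12906 tested genes. Its ratio to Lypd8 did not pass either (difference 0.45, exact p = 0.143, adjusted p = 0.143), but under quantile normalization it was higher in CD24Mid (0.84, adjusted p = 0.0357).

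Ccl25 was 2.54-fold lower in CD24Mid, with little spread. It had 5068, 3843, 3485 and 3245 in CD24Mid libraries 1, 3, 5 and 7, and 10582, 8607, 10874 and 9317 in CD24Neg libraries 2, 4, 6 and 8. The gap between the fractions was wide against the spread inside them. The mean of 3910 ± 810 in CD24Mid against 9845 ± 1066 in CD24Neg gave a log2 difference of -1.35 (SE 0.15, limma adjusted p = 2.70e-05), which stayed between -1.47 and -0.83 and kept its call in all 18 alternatives. The same held for the direction and call of Reg1, Reg3a, Reg3b, Reg3g and Reg4.

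**Figure D4:**
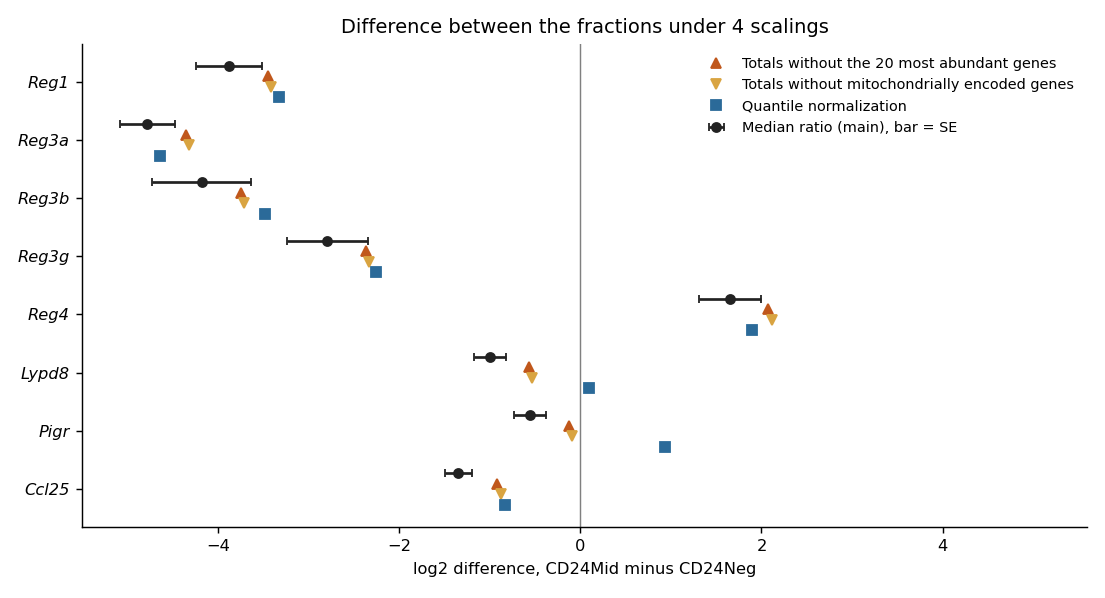
Log2 difference, CD24Mid minus CD24Neg, of each member under 4 ways of scaling the libraries, with the standard error drawn for the scaling used in the text. Reg1, Reg3a, Reg3b, Reg3g and Ccl25 stay left of 0 and Reg4 right of it, while Pigr reaches 0.94 and Lypd8 0.10 under quantile normalization.

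Levels of different genes were compared per kilobase of the longest principal transcript. In CD24Neg, Reg3b (56187 ± 26208 per kb) and Lypd8 (36608 ± 5663) led and overlapped over libraries, and Pigr (23462 ± 4673), Reg3g (21708 ± 8795) and Reg1 (20592 ± 6348) followed and overlapped too. The order is one of means, since the lowest CD24Neg library of Reg3b, at 23388 per kb, lay under the highest of Pigr (30280), Reg3g (32657) and Reg1 (26754). Ccl25 (9305 ± 1008), Reg3a (5093 ± 1439) and Reg4 (540 ± 266) came last, each apart from the next. CD24Mid had another order, with Lypd8 (18485 ± 4288 per kb) and Pigr (15916 ± 2373) on top and overlapping. Ccl25 (3696 ± 765), Reg3g (3394 ± 1995), Reg3b (3379 ± 2056), Reg4 (1632 ± 513) and Reg1 (1499 ± 927) came next, with each overlapping its neighbour in this order, and Reg3a (191 ± 91.2) was last and apart. Reg4 was thus the lowest of the 8 per kilobase in CD24Neg and Reg3a in CD24Mid.

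For each member the 3 tested genes with the nearest profile over the 8 libraries were found by the root mean square distance of log2 values centred on their means. Reg1 was nearest to Slc2a5, the fructose transporter (distance 0.20), Alpi, intestinal alkaline phosphatase (0.22), and Ces2c, a carboxylesterase (0.30). Reg3b had Kcnj13, the brush border sodium-hydrogen exchanger gene Slc9a3 and the epithelial kinase gene Ptk6 nearest, at 0.43 to 0.45. Reg3a had Slc22a13b-ps, Trib3 and Egln3 at 0.24 to 0.26, and Reg3g had Muc6, Ptpn22 and Apol10b at 0.35 to 0.38. Reg4 was nearest to Dusp18 (0.21), Inava (0.24) and Scg3, a granin family gene of endocrine granules (0.27). Some of these genes were low in a fraction, so their distances can depend on the pseudocount. Kcnj13, Trib3 and Muc6 had means of 0.997, 5.66 and 6.15 in CD24Mid, and Scg3 had 6.25 in CD24Neg. The flatter members had closer neighbours: Lypd8 had Prpsap1, Psmb10 and Fbrsl1 at 0.06 to 0.10, Pigr had Sel1l, Scyl3 and Slc33a1 at 0.11, and Ccl25 had Frs3, Slc4a5 and Misp at 0.07 to 0.08. Among the members themselves, Lypd8 and Ccl25 were closest (distance 0.23), followed by Lypd8 and Pigr (0.40) and by Reg1 and Reg3a (0.48). Reg3a ranked 60 in likeness to Reg1, and Reg1 ranked 66 in likeness to Reg3a.

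Genes that act before, beside or after the members were counted from 7 lists, of which the pair Reg2 and Reg3d had no tested gene. Their counts stand beside the 34.0% lower and 34.3% higher of all tested genes. A gene under 10 in every library of 1 fraction passed the filter only through the other, so its direction was fixed. Of the list genes named below, this held for Slpi, Wfdc2, Ccr10 and Mzb1 (higher in CD24Mid). It also held for Saa1, Ccl24 and Cxcl11 (higher in CD24Neg). Receptors and signal transducers known to act upstream of Reg and Pigr transcription were tested for 23 genes, of which 17 were lower in CD24Mid, 2 higher and 4 not called, with a median log2 difference of -0.87. Under quantile normalization 13 were lower and 1 higher, and under the scalings to totals 13 were lower and 3 or 4 higher. Il22ra1, the IL-22 receptor subunit, had 257 ± 45.8 in CD24Mid and 854 ± 159 in CD24Neg (log2 difference -1.73, limma adjusted p = 7.98e-06). Its partner Il10rb had 589 ± 92.6 in CD24Mid and 1648 ± 226 in CD24Neg (-1.49), and Stat3, the transcription factor below them, 693 ± 116 in CD24Mid and 2038 ± 211 in CD24Neg (-1.57, adjusted p = 4.37e-06). Relb, an NF-kappaB subunit, was lower as well (484 ± 57.6 in CD24Mid, 1159 ± 124 in CD24Neg, -1.26). Irak1, a kinase that works with MyD88, was higher (1165 ± 35.5 in CD24Mid, 527 ± 97.0 in CD24Neg, 1.16).

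Other secreted antimicrobial and mucosal proteins were split, with 7 lower, 4 higher and 6 not called of 17 tested and a median of -0.13. Under the scalings to totals 5 were lower and 5 higher. The higher genes included Slpi and Wfdc2, which had at most 4.78 and 6.44 in CD24Neg and passed the filter through CD24Mid alone. With any 1 CD24Mid library left out, 2 genes of this list were higher. Zg16, a lectin-like goblet cell protein that is also in the goblet marker list, had 8905 ± 3755 in CD24Mid and 72749 ± 34071 in CD24Neg (log2 difference -3.02, limma adjusted p = 6.98e-05). Il18, an epithelial cytokine, had 93.5 ± 37.2 in CD24Mid and 1143 ± 231 in CD24Neg (-3.66, adjusted p = 1.22e-06). Saa1, an acute phase protein, was within a read of 0 in CD24Mid (0.479 at most) and had 26.4 to 124 in CD24Neg. Saa1 passed the filter through CD24Neg alone, so its direction was fixed. Dmbt1, a scavenger receptor protein of mucus, went the other way with 102836 ± 23649 in CD24Mid and 29262 ± 5560 in CD24Neg (1.80, adjusted p = 3.56e-05).

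Of 11 tested chemokines other than Ccl25, 6 were lower, 1 higher and 4 not called, with a median of -1.64. This median is the value of Ccl4, which was not called (adjusted p = 0.244), and it and Ccl5 are looked at here after their values were seen. Ccl4 had 12.3, 0, 3.28 and 8.54 in CD24Mid libraries 1, 3, 5 and 7, and 36.6, 1.07, 13.6 and 25.04 in CD24Neg libraries 2, 4, 6 and 8. Ccl5, which T cells also make, had 26.1, 7.71, 4.57 and 13.8 in CD24Mid against 1324, 51.5, 176 and 948 in CD24Neg (log2 difference -4.87, limma adjusted p = 0.00113). Both were highest in CD24Neg libraries 2 and 8 and ran within CD24Neg in the order of the T cell marker sums given above, whose part in them was not tested. Cx3cl1, a membrane-bound chemokine, had 394 ± 124 in CD24Mid and 2172 ± 291 in CD24Neg (log2 difference -2.50), and Cxcl16 had 57.7 ± 13.0 in CD24Mid and 270 ± 51.2 in CD24Neg (-2.22). Cxcl11, which binds Cxcr3, had 4.07 ± 1.28 in CD24Mid and 216 ± 47.8 in CD24Neg (-5.59, limma adjusted p = 3.31e-07), and Ccl24 had 2.69 at most in CD24Mid and 45.7 to 123 in CD24Neg. Both were under 10 in every CD24Mid library and passed the filter through CD24Neg alone. Their direction was thus fixed, and both count among the 6 lower. Ccl9 was the higher one, with 359 ± 132 in CD24Mid and 91.5 ± 24.5 in CD24Neg (1.94).

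Among receptors of the member proteins, 2 of 3 tested were higher in CD24Mid and none lower. Ccr9, the receptor of Ccl25 and also in the intraepithelial T cell list, had 55.4, 31.0, 42.4 and 72.6 in CD24Mid and 111, 31.9, 37.4 and 98.6 in CD24Neg (log2 difference -0.32, limma adjusted p = 0.535), and CD24Neg libraries 2 and 8, the high ones, are those with the most T cell transcripts. Ccr10, a receptor of Ccl28, was low in both fractions (18.1 ± 1.49 in CD24Mid, 4.89 ± 3.44 in CD24Neg, limma adjusted p = 0.00681). It had at most 8.33 in CD24Neg and passed the filter through CD24Mid alone, so it could be tested only as higher there. With any 1 CD24Mid library left out it fell under the filter, and 1 gene of this list was higher. Extl3, a glycosyltransferase reported to act as a receptor of Reg proteins, had 425 ± 33.5 in CD24Mid and 260 ± 36.1 in CD24Neg (log2 difference 0.72, adjusted p = 0.000587).

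The IgA that Pigr carries is made by plasma cells. Of 7 tested genes of IgA support and Fc receptors, 2 were higher, 3 lower and 2 not called (median -0.17). Jchain, which joins IgA dimers, had 5512 ± 1915 in CD24Mid and 280 ± 98.6 in CD24Neg (log2 difference 4.28, limma adjusted p = 2.07e-06), and the plasma cell chaperone Mzb1 had 66.6 ± 21.5 in CD24Mid and 1.78 to 7.38 in CD24Neg. With any 1 CD24Mid library left out, Mzb1 fell under the filter and 1 gene of IgA support was higher. Jchain and Mzb1 are also plasma cell markers, a list with 7 tested genes, of which 5 were higher and 2 lower in CD24Mid. The list summed to 9301 to 18335 in CD24Mid and 4701 to 5699 in CD24Neg, where its other genes carried most of the sum. Fcgrt, the neonatal Fc receptor, was lower (856 ± 271 in CD24Mid, 2171 ± 274 in CD24Neg, -1.38), and so was Aldh1a1, a retinal dehydrogenase (276 ± 59.5 in CD24Mid, 7278 ± 3038 in CD24Neg, -4.65). Of 9 tested Ly6/uPAR genes other than Lypd8, 3 were higher and none lower (median 0.83), namely Cd59b (69.8 ± 6.33 in CD24Mid, 28.9 ± 6.18 in CD24Neg), Ly6e (2091 ± 412 in CD24Mid, 1191 ± 337 in CD24Neg) and Ly6c2 (33.3 ± 9.40 in CD24Mid, 14.2 ± 10.6 in CD24Neg), while 5 were higher under the scalings to totals and 1 against a fold change of 1.5. In the list, 2 genes were lower under quantile normalization and 2 without CD24Neg library 8. The Ly6c2 call ended without CD24Mid library 1 or 7 and without CD24Neg library 4 or 6, with adjusted p from 0.0572 to 0.0617.

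**Figure D5:**
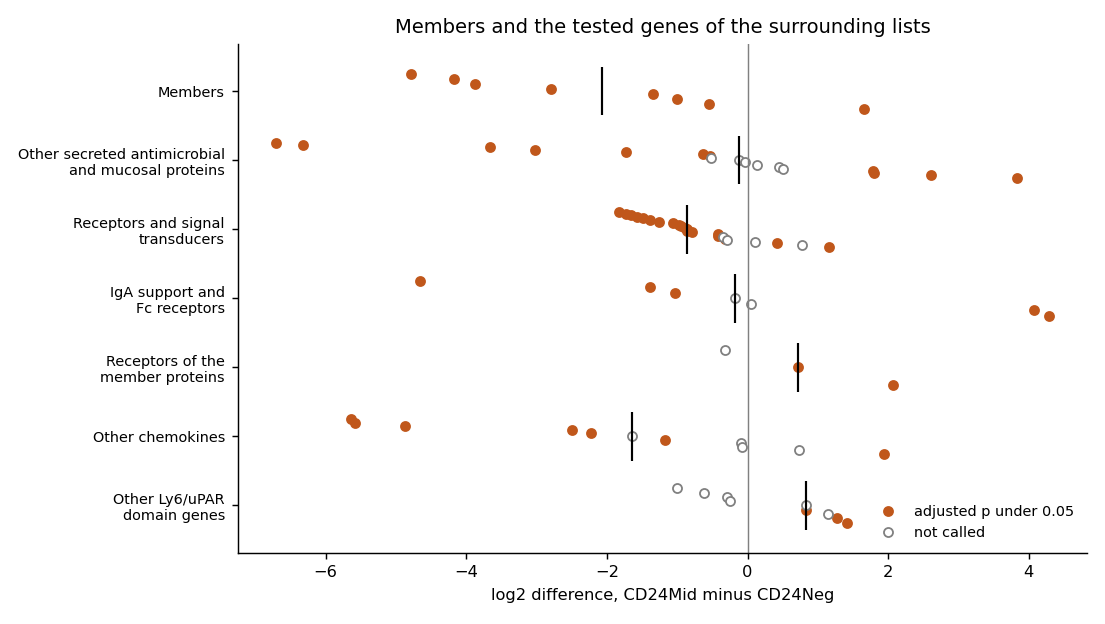
Log2 difference, CD24Mid minus CD24Neg, of the 8 members (top row) and of each tested gene in 6 lists, filled where the limma adjusted p is under 0.05, with a line at the median of each row. The median is -2.07 for the members, -0.87 for receptors and signal transducers, -1.64 for other chemokines and 0.83 for other Ly6/uPAR genes. The fitted positions of 4 genes at or near 0 reads in a fraction depend on the pseudocount. So do those of genes with a single library at or near 0, such as Ccl4.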

How the data were processed

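Per the labels' protocols, TruSeq RNA libraries were made from total RNA of sorted cells. The deposited values are signal values, gene-level expression estimates from the authors that were already scaled between libraries; Bowtie 0.12.8 and the build NCBIM37 are named in the submitters' processing notes, while the estimator's version, the annotation and the scaling tool are not stated in these sources. The value of 1 read was taken from the even steps of the lowest values, 0.582 to 0.696 in CD24Mid and 1.07 to 1.77 in CD24Neg. This step was the same for shorter and longer genes to within 3.51%, so the values are not per length. No count model was used, because most values did not come out as whole reads, and depth limits the members little, since the fewest reads behind a member value were 175.

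Libraries were grouped by their titles, and no 2 libraries held equal values. Genes at 10 or above in 4 or more libraries were centred on the median ratio and tested as log2(value + 0.5) in limma 3.58.1 (R 4.3.3), with moderated, trended and robust variances and Benjamini-Hochberg adjustment over 12906 genes at a threshold of 0.05. The p-values measure the spread between these libraries. Folds on this scale understate changes of low genes. Ratios of 5 member pairs were compared by exact permutation in scipy 1.17.1. The alternatives were 3 other scalings, pseudocounts of 0.1 and 1, no filter, limma without trend, a test against a fold change of 1.5, leaving out each library, leaving out CD24Neg libraries 2 and 8, and a block on adjacent title numbers, chosen after seeing the data. The fit was tried on simulated counts with few changed genes and 1 small spread for all genes. That setting differs from these data, so it does not vouch for the calls given here.

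Symbols, positions and transcript lengths came from GENCODE M21 (GRCm38), which gave symbols to 21223 of 23318 identifiers, and not from the build of the files. Words of 36 bases shared with transcripts of other genes made up 5.17% of Reg1 and 0.611% of Pigr and were not found in the other 6 members. Upstream windows came from RefSeq (GRCm38.p6), where all 5 Reg genes matched by symbol. The members and lists were chosen with earlier results of these data known. Named genes are the members, up to 4 called genes of each list by adjusted p plus the best one in a direction these miss, and the 3 nearest profiles of each member. Ccr9, Ccl4, Ccl5, Slpi, Wfdc2, Reg2 and Reg3d were named outside this rule, after their values were seen.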

Additional observations from a re-analysis of the deposited data

Results flagged for a closer look

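Within fractions of 4 libraries, 2 of 16 sets of untransformed member values had a library far from the other 3. The nominal rate of about 1 in 20 assumes normal values and independent sets, so no excess over chance is read from this. The scan was not run on the log2 scale used for the other tests. Both concerned CD24Mid library 1. Reg1 was at 2606 there, against 837 to 1031 in CD24Mid libraries 3, 5 and 7, and the gap to the nearest of them was 0.89 of the whole range, above Dixon's critical value for 4 samples. Reg3a was at 270 in the same library, against 116 to 127 in the other 3, with a gap of 0.926 of the range. The marker sums of that library stand with the report's account of the spread within fractions, and their part in these values was not tested. Without CD24Mid library 1, Reg1 and Reg3a were lower in CD24Mid by a larger amount, with log2 differences of -4.25 and -5.07 in place of -3.88 and -4.78.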

How the results depend on the processing

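Reg1, Reg3a, Reg3b, Reg3g, Reg4 and Ccl25 kept their direction and call under all 18 alternatives. Quantile normalization turned Lypd8 to 0.10 and Pigr to 0.94, so that 2 members were higher in CD24Mid, and raised the difference of Pigr over Lypd8 to 0.84 (adjusted p = 0.0357). Scaled to totals that leave out the 20 most abundant genes, Pigr was at -0.13, and at -0.088 where mitochondrially encoded genes were left out. The first left 2842 of all tested genes lower in CD24Mid (30.4% of calls in place of 49.8%) and the second 2723 lower and 6695 higher, against 4386 and 4424. The test against a fold change of 1.5 left 4790 genes called, 2430 higher and 2360 lower, and 9 list genes higher in place of 14, and it ended the calls of Pigr (-0.55) and Lypd8 (-1.0). Pigr ranged from -0.65 to -0.43 with 1 library left out, with its call lost at -0.44 without CD24Mid library 3, and the list genes higher in CD24Mid numbered 9 to 16. Each such fit without a CD24Mid library tests fewer genes that are low in CD24Neg, since the filter still asks for 4 libraries. With a pseudocount of 1 the pair differences were -1.39 for Reg3b over Reg3g, -1.98 for Reg3a over Reg3g and 5.53 for Reg4 over Reg1, and none passed. Without CD24Neg libraries 2 and 8 they were -1.63, -2.74 and 5.63, and with 1 library left out -1.54 to -1.13, -2.44 to -1.58 and 5.27 to 6.16, in designs too small for the exact test to pass. Where no construction is named, the cause was not tested. No paired analysis by a shared number was possible because the fractions share no number in their titles. The labels do not state that adjacent numbers (1 and 2, 3 and 4, 5 and 6, 7 and 8) are pairs. Deviations from the fraction means nevertheless correlated over 12906 tested genes at 0.28 to 0.33 in these 4 pairs, against -0.26 to 0.033 in other pairs, a hint from the data and not from the design. A block on adjacent numbers, added after seeing the data, gave 9504 calls, 4771 higher and 4733 lower, and ended no member's call (Pigr -0.55, adjusted p = 0.0141). For the ratios, an exact paired test of 4 pairs cannot go below 0.125. Reg2 and Reg3d were tested only without the filter on low values.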
